A study of Mus musculus with 20 samples.

Results

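The FoxO genes Foxo1, Foxo3, Foxo4 and Foxo6 were followed by symbol through hippocampal RNA sequencing of Fmr1 mutant and C57 mice, and all 4 were among the 13256 protein-coding genes measured in each of the 20 libraries. They were chosen by the FPKM of Foxo6 in the female libraries, which was known from these data to be higher in KO than in WT. The values of the 4 genes in female KO against WT are therefore given as a description. Tests are given for all 4 genes in males and for Foxo1, Foxo3 and Foxo4 between the sexes. The tests between the sexes share the female libraries with that choice. The 4 groups held 5 libraries each and were female C57 mice (labelled WT), female Fmr1 KO mice, male C57 mice and male Fmr1 KO mice. Every title in all 4 groups also carries the tag Con, which the labels do not explain. The titles call the mutants KO and the genotype field calls them a knockdown, so the titles' word is used. Age and the allele are not stated in the labels, and nothing says whether the 5 libraries of a group came from separate animals, so the p-values reflect the spread among these libraries, which may be technical.

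FoxO proteins are transcription factors with a forkhead DNA-binding domain. Insulin and related growth factors act through PI3-kinase to activate AKT. AKT phosphorylates FoxO1, FoxO3 and FoxO4, so that 14-3-3 proteins bind them and hold them in the cytoplasm. When that signal is low these FoxO proteins enter the nucleus and switch on genes of cell cycle arrest, oxidative stress defence, autophagy and energy metabolism. FoxO1, FoxO3 and FoxO4 are found in many tissues, whereas FoxO6 is made mainly in the brain, including the hippocampus, where it has been linked to memory consolidation.

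The genotype labels could be checked on Fmr1 itself, which encodes the RNA-binding protein FMRP. It ran from 9.85 to 11.8 FPKM (fragments scaled by transcript length and by library size) in the 10 WT libraries and from 2.90 to 3.72 in the 10 KO libraries. Sex was taken from the labels, and no gene that would check it is shown here. Any other difference between the female and male sets of libraries cannot be told apart from sex. All 4 FoxO genes passed the filter on low values, 0.5 FPKM in at least 5 libraries, which left 13174 genes. Depth is unknown because the files hold FPKM and no counts. Ttr, a gene of the choroid plexus, was above 500 FPKM in 4 libraries (female WT replicate 4, female KO replicates 4 and 5, male KO replicate 2), and the pituitary hormone gene Prl was above 4 FPKM in 3 (female KO replicates 2, 3 and 4).

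The genes lie on 4 chromosomes (mm10 coordinates of the deposited tables). Foxo1 (ENSMUSG00000044167.6) spans chr3:52268336-52353221 on the plus strand, Foxo3 (ENSMUSG00000048756.11) chr10:42181841-42276755 on the minus strand, Foxo4 (ENSMUSG00000042903.8) chrX:101254528-101260873 on the plus strand and Foxo6 (ENSMUSG00000052135.8) chr4:120267079-120287349 on the minus strand. In GENCODE M21 no other gene model overlaps Foxo3, Foxo4 or Foxo6. The antisense gene Foxo6os lies 4001 bases from Foxo6. Foxo1 is overlapped by the antisense model Gm20402 and by Gm38034 on its own strand, and since the strand setting of the counting is not given in the sources used here, reads of these cannot be told apart from those of Foxo1.

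Because the family shares its DNA-binding domain, the transcripts were compared to see how alike the 4 are as targets of sequencing reads. The longest run of codons that translates to the same residues in all 4 coding sequences is 27 codons, or 81 bases. It is coded across 2 exons in each gene and is printed from GENCODE M21, 5′ to 3′ on the coding strand. Capitals mark the 14 bases that are not the same in all 4 genes.
Foxo1: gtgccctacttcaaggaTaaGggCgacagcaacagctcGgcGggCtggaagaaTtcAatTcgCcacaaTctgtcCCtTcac
Foxo3: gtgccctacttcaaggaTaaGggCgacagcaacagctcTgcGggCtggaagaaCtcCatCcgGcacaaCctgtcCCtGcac
Foxo4: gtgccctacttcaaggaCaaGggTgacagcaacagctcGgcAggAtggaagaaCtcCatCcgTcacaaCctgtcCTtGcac
Foxo6: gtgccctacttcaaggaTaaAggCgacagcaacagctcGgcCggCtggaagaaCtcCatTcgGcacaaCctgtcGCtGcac
Of the 14 variable bases, 13 are at the third codon position. In this stretch Foxo6 differs from Foxo3 at 5 bases, from Foxo1 at 8 and from Foxo4 at 9. Over whole transcripts the longest stretch that Foxo6 shares exactly with another member is 21 bases, with Foxo1, and the longest between any pair is 38 bases, between Foxo1 and Foxo3. The stretches lie at chr3:52269372-52345068, chr10:42197872-42274866, chrX:101255223-101258206 and chr4:120269153-120286889, introns included.

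In the libraries other than female KO, the order of levels was the same for the first 2 genes. Foxo3 was the highest member, at 8.35 ± 0.505 FPKM (SD, n = 15), and Foxo1 followed at 6.47 ± 0.456. Foxo3 exceeded Foxo1, and Foxo1 exceeded Foxo4, in 20 of 20 libraries. Foxo4 (5.26 ± 0.315 FPKM) and Foxo6 (5.10 ± 0.508) did not differ beyond their spread, and Foxo6 was the higher of these in 7 of the 15 libraries. Their group means stood near the middle of all measured genes: in female WT 61.8% of genes were lower than Foxo3 and 46.4% were lower than Foxo6.

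**Figure D1:**
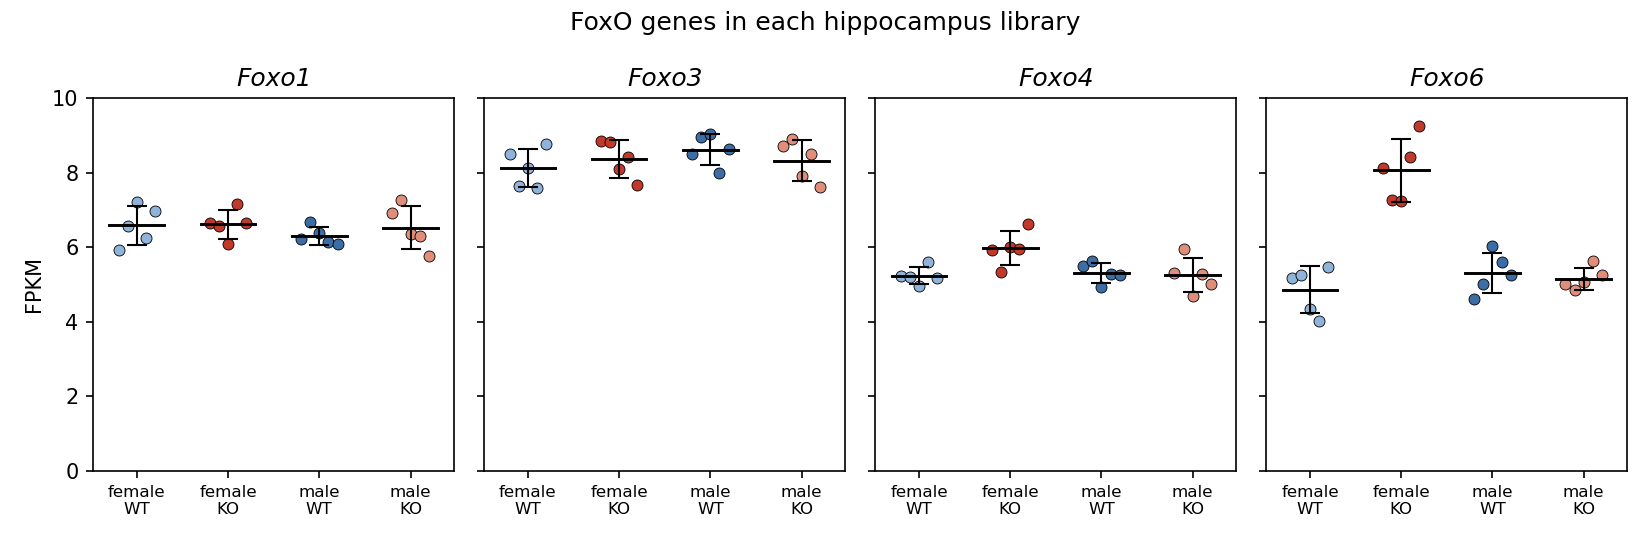
FPKM of each FoxO gene (vertical axis) in the 4 groups (horizontal axis); points are libraries, long bars the mean and error bars the SD (n = 5 per group). The 5 female KO points of Foxo6 lie between 7.23 and 9.26 FPKM, above the other 15, while the groups overlap for Foxo1, Foxo3 and Foxo4.

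Foxo6, the brain form, was the member that stood apart in female KO. Its level in female WT replicates 1 to 5 was 5.18, 5.24, 4.34, 4.02 and 5.47 FPKM. In female KO it was 8.11, 7.26, 7.23, 8.41 and 9.26 FPKM. The lowest female KO library was above the highest of all other libraries (6.02 FPKM, male WT replicate 3). The WT mean was 4.85 ± 0.63 FPKM and the KO mean 8.05 ± 0.851 (SD, n = 5 per group), a ratio of 1.66 and a difference of 0.63 on the log2(FPKM + 1) scale (standard error 0.077). Among 13174 genes this was the 41st highest female difference. These are the values that led to the choice of the family, and no test is read from them.

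In males the Foxo6 values of KO and WT overlapped. Male WT replicates 1 to 5 had 4.61, 5.01, 6.02, 5.60 and 5.24 FPKM, and male KO replicates had 4.99, 4.84, 5.05, 5.61 and 5.25. The 5 KO values fell inside the range of the 5 WT values. The male WT mean was 5.30 ± 0.54 FPKM and the male KO mean 5.15 ± 0.297 (SD, n = 5 per group), with a log2 difference of -0.031 (standard error 0.077, limma adjusted p = 0.953). These libraries took no part in the choice of Foxo6. Subtracting the female from the male KO effect gave -0.66 (standard error 0.11), which is given as a description because it rests on the female values. In WT, males minus females was 0.11 (standard error 0.077), and in KO it was -0.55 (standard error 0.077). The WT value was 0.20 after a trend on gene GC content was removed within each library. That trend was fitted to log2 values relative to each gene's mean over the libraries. The WT value was 0.055 without female WT replicate 4 or without the 4 libraries with high Ttr.

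Foxo4, the X-linked member, had the next largest female difference, with overlapping groups. It was at 5.23, 5.20, 4.96, 5.59 and 5.16 FPKM in female WT replicates 1 to 5 and at 5.93, 5.32, 6.01, 5.96 and 6.62 in female KO. Replicate 2 was the only female KO library under the highest WT value. The means were 5.23 ± 0.228 and 5.97 ± 0.46 FPKM (SD, n = 5 each), so that KO stood at 114% of WT, and the log2 difference was 0.16 (standard error 0.054). In males the Foxo4 mean was 5.31 ± 0.27 FPKM for WT and 5.25 ± 0.466 for KO (SD, n = 5 per group, log2 -0.016, limma adjusted p = 0.968). Between WT males and females Foxo4 differed by a log2 of 0.018 (standard error 0.054, limma adjusted p = 0.942). In KO it was lower in males by a log2 of -0.16, which did not pass (limma adjusted p = 0.0884). After removal of the same GC trend these Foxo4 values were 0.11 between female KO and WT and -0.073 between the sexes in KO (limma adjusted p = 0.563).

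Foxo3, the most abundant member and a regulator of autophagy and stress genes in many cell types, overlapped between the groups. It was at 8.50, 7.64, 8.12, 7.58 and 8.76 FPKM in female WT and at 8.86, 8.81, 8.09, 8.42 and 7.66 in female KO (means 8.12 ± 0.518 and 8.37 ± 0.503, log2 0.039). In male WT it was at 8.48, 8.96, 9.02, 7.98 and 8.64 FPKM and in male KO at 8.70, 8.89, 7.90, 8.49 and 7.62. The ranges overlapped in both sexes. The male difference was -0.046 on the log2 scale (standard error 0.051, limma adjusted p = 0.871). Between the sexes it was 0.077 in WT (limma adjusted p = 0.62) and -0.0078 in KO (limma adjusted p = 0.945).

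Foxo1, best known as the FoxO of insulin action in liver and of vessel walls, was the member with the smallest female difference. Its 5 female WT libraries ran from 5.92 to 7.21 FPKM and its 5 female KO libraries from 6.07 to 7.16, with means of 6.59 ± 0.526 and 6.62 ± 0.387 (log2 0.0069). Male WT libraries ran from 6.09 to 6.67 FPKM and male KO libraries from 5.76 to 7.25. The male difference was 0.04 on the log2 scale (standard error 0.056, limma adjusted p = 0.905). Males minus females was -0.054 in WT (limma adjusted p = 0.789) and -0.021 in KO (limma adjusted p = 0.857).

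**Figure D2:**
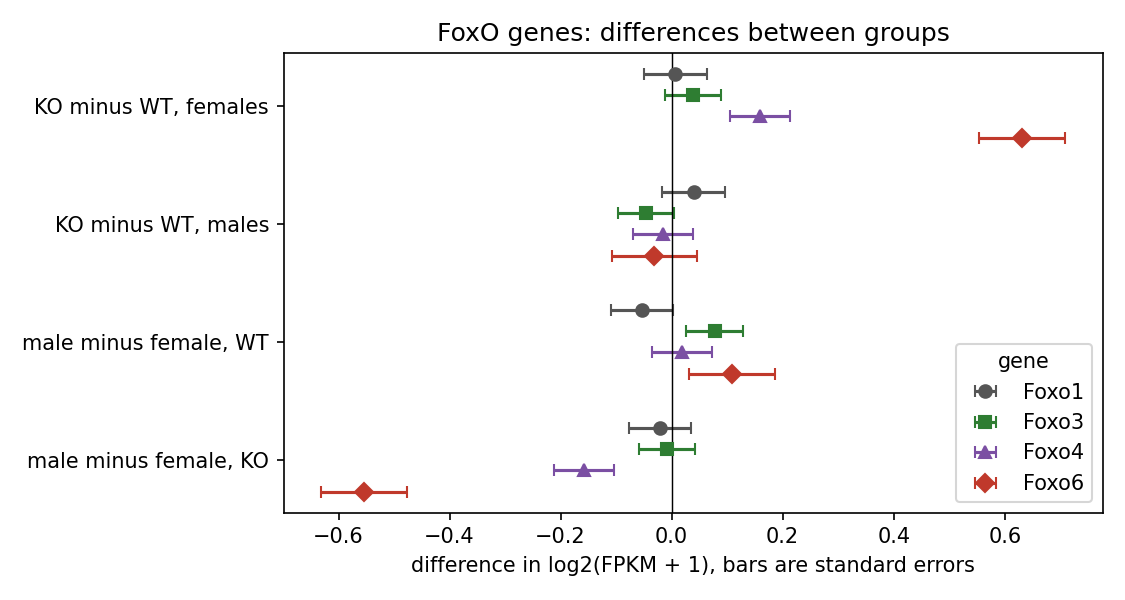
Difference in log2(FPKM + 1) (horizontal axis) of the 4 FoxO genes in 4 comparisons (vertical axis); symbols are limma estimates over 5 libraries per group and bars are standard errors. Foxo6 stands at 0.63 in females and -0.031 in males, and 0 of the 4 genes passed in males.

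Counted against all genes, 0 of the 4 FoxO genes passed an adjusted p of 0.05 in the male comparison with limma (0 also had an unadjusted p under 0.05), where 0.0455% of the 13174 genes passed and 8.69% had an unadjusted p under 0.05. In females 1 of the 4 passed, Foxo6, against 3.32% of all genes (1.8% higher and 1.53% lower; 19.5% had an unadjusted p under 0.05), and nothing is read from that count because the same contrast chose the gene. Of Foxo1, Foxo3 and Foxo4, 0 passed between the sexes with limma. In WT 0 of the 3 had an unadjusted p under 0.05, against 10.3% of all genes, of which 0.129% passed. In KO 1 of the 3, Foxo4, had one, against 23.3% of all genes, of which 5.38% passed.

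The make-up of the family in female KO had a larger share of Foxo6. The summed level of the 4 genes was 24.8 ± 1.04 FPKM in female WT and 29.0 ± 1.25 in female KO (SD, n = 5 per group). For males it was 25.5 ± 0.733 FPKM without and 25.2 ± 1.39 with the Fmr1 mutation. Foxo6 made up 19.5% ± 1.97 of this sum in female WT and 27.7% ± 1.86 in female KO, against 20.7% ± 1.91 and 20.5% ± 1.79 for the male groups in the same order (SD, n = 5 each). Foxo6 ranked above Foxo1 in 5 of 5 female KO libraries and in 0 of the other 15. In female KO replicate 5 it was above Foxo3 as well. These shares follow from the Foxo6 values above and are a description of the same libraries.

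**Figure D3:**
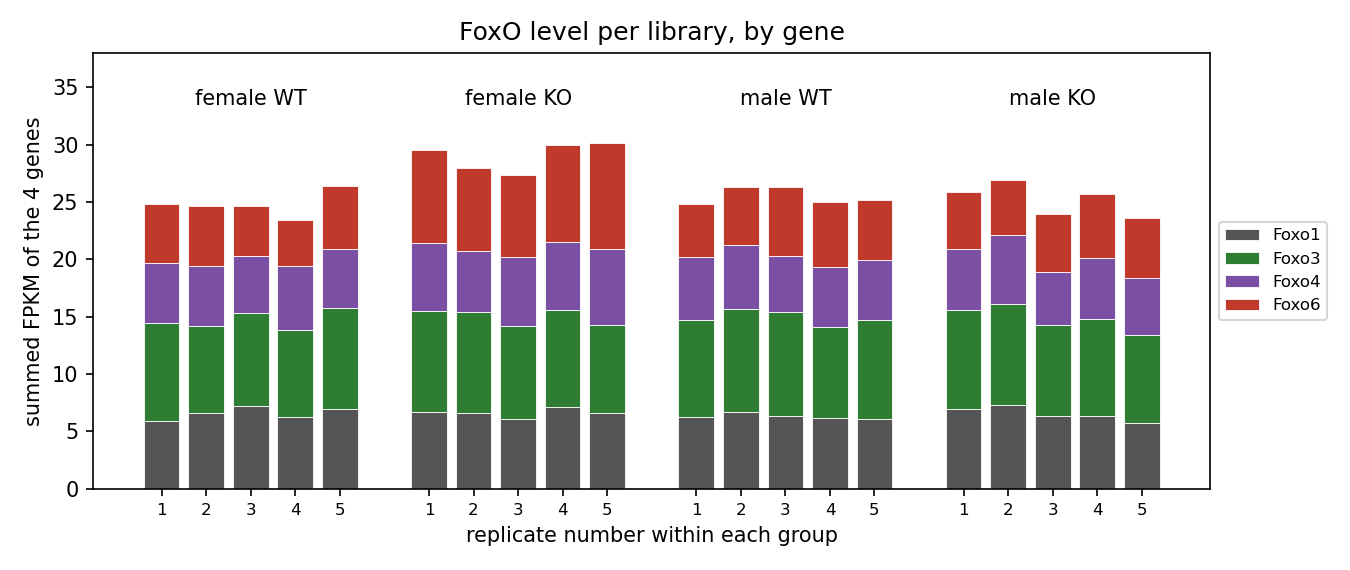
Summed FPKM of the 4 FoxO genes (vertical axis) in each library (horizontal axis, replicate numbers within the 4 groups), split by gene. The 5 female KO bars reach 27.4 to 30.2 FPKM and the other 15 reach 23.4 to 26.9, with the Foxo6 segment as the part that is taller.

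The female KO libraries also stood apart in a library feature, the slope on gene GC content of expression relative to the other libraries. Foxo6 transcripts have a GC content of 69.1%, and only 12 of 13146 tested genes with a GC content were higher (median 50.2%). For each library, the deviations of log2(FPKM + 1) from each gene's mean over all 20 libraries were set against GC content. The slope, per 10 percentage points, ran from 0.067 to 0.083 in the 5 female KO libraries and from -0.1 to 0.034 in the other 15. Its sign and size are relative to the mean of these libraries. After removal of this trend within each library the female Foxo6 difference was 0.50 (standard error 0.078) and the male difference -0.030. Over the 15 libraries outside female KO the GC slope and Foxo6 had a Pearson r of 0.13, with group means left in. This describes libraries that share the same tissue and processing. Their slopes end at 0.034, so the r does not cover the slopes of female KO. The part of GC content in the Foxo6 values was not tested beyond removal of the trend. The male-minus-female difference of Foxo6 in KO became -0.32 after the trend was removed.

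**Figure D4:**
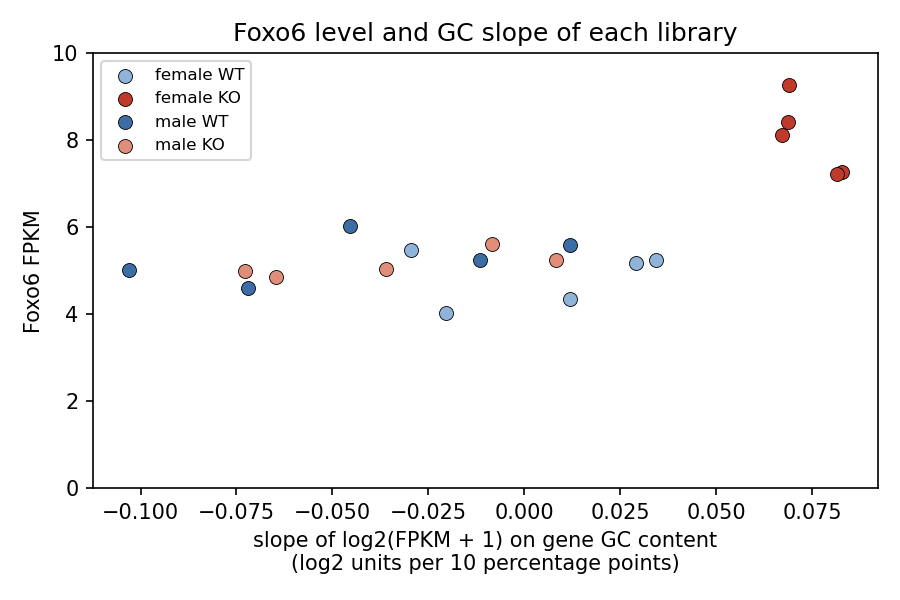
Foxo6 FPKM (vertical axis) against the GC slope of the same library (horizontal axis, log2 units per 10 percentage points). The slope is that of log2(FPKM + 1), less each gene's mean over the 20 libraries, on gene GC content. Each point is a library. The 5 female KO libraries lie apart on both axes, with slopes of 0.067 to 0.083.

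Some cell markers also differed in the female comparison. The summed FPKM of the 10 dentate granule cell markers ran from 104 to 128 in female WT and from 79.3 to 107 in female KO, and all 10 were below 0 in the female comparison (median -0.25), 3 of them past the threshold in a direction where 1.53% of all genes passed. The 7 CA1 pyramidal markers summed to 142 to 172 FPKM in female WT and 149 to 194 in female KO, with 5 above and 2 below 0 and 2 higher past the threshold, where 1.8% of all genes passed in this direction. The 8 interneuron markers summed to 483 to 555 FPKM in female WT and 563 to 607 in female KO, with 6 above and 2 below 0 and 1 higher past the threshold. The 7 meningeal fibroblast markers summed to 24.3 to 34.3 FPKM in female WT and 26.1 to 45.9 in female KO, and of the 6 tested 5 were above 0 (median 0.32) and 1 was higher past the threshold. The 9 oligodendrocyte markers summed to 533 to 902 FPKM in female WT and 584 to 722 in female KO, and 9 of 9 were below 0 in both sexes (medians -0.15 and -0.16), with 1 lower past the threshold in females. The 6 general neuron markers summed to 719 to 748 FPKM in female WT and 751 to 777 in female KO. All 6 were above 0 (median 0.050), and 0 passed with limma (2 had an unadjusted p under 0.05). For markers of CA3 and CA2 pyramidal cells, astrocytes, microglia and endothelium 0 passed with limma in females (3, 0, 2 and 2 had an unadjusted p under 0.05). In the same order 8 of 9, 2 of 8, 4 of 7 and 3 of 8 were below 0. The 8 choroid plexus markers (7 of them tested) summed to 12.6 to 914 FPKM in female WT and 43.4 to 1531 in female KO, and the 3 measured pituitary markers (2 of them tested) to 0.128 to 4.52 and 0.508 to 129. Of both lists 0 passed with limma (0 and 2 had an unadjusted p under 0.05). The 7 tested choroid plexus markers (median 0.67) and the 2 tested pituitary markers were all above 0 in females. No marker on these lists was at 0 in all 20 libraries. In bulk tissue, fewer cells of a type and less RNA per cell cannot be told apart, and the part of these markers in the Foxo6 values was not tested beyond leaving libraries out. Without the 4 libraries with high Ttr the female Foxo6 difference was 0.50, and without the 3 with high Prl it was 0.73.

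**Figure D5:**
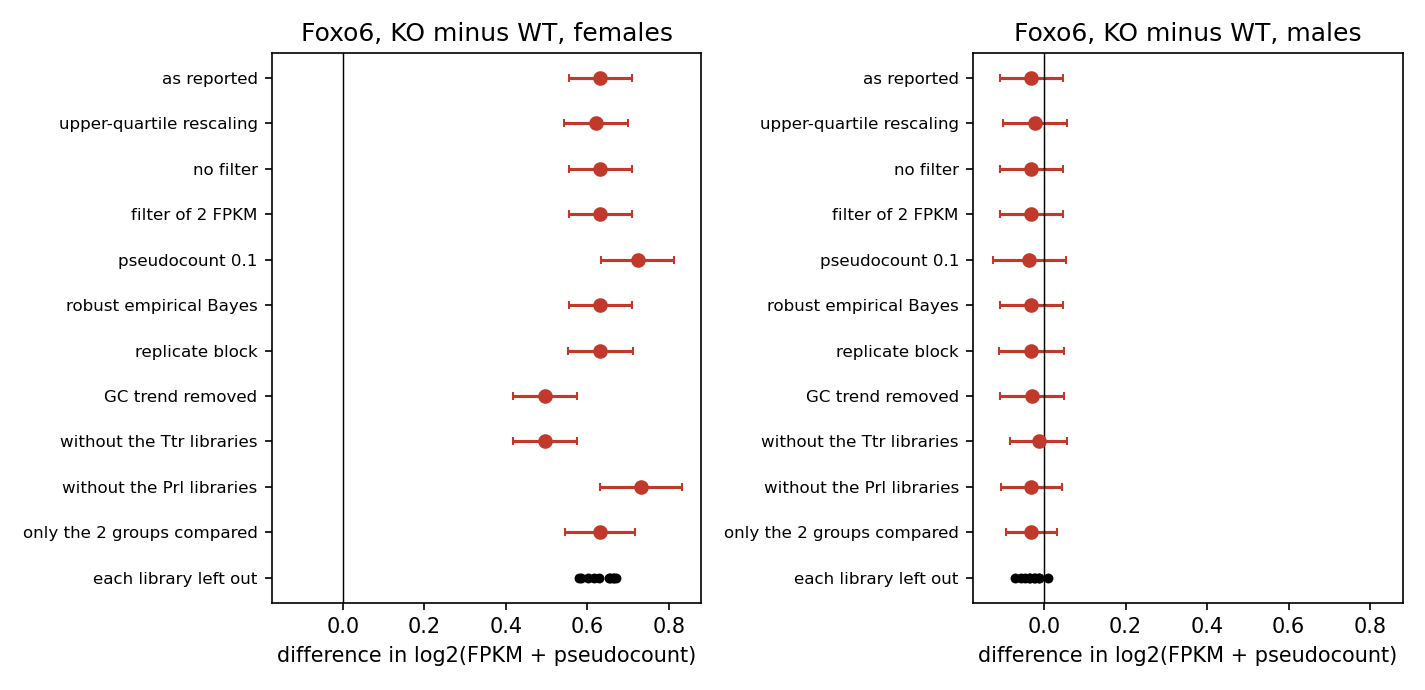
KO minus WT difference of Foxo6 on the log2 scale (horizontal axis) in females (left) and males (right) under each way of processing (vertical axis); bars are standard errors and black points are fits with 1 library left out. Female values lie between 0.50 and 0.73 and male values between -0.071 and 0.0093.

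The pathway upstream of the FoxO proteins was described with lists of regulators. Of 30 measured genes of insulin, IGF, PI3-kinase and AKT signalling, 0 passed in females or males with limma (5 and 4 had an unadjusted p under 0.05), and the medians were 0.0084 and -0.001 against 0.0052 and -0.0015 for all genes. Igfbp6, which encodes a secreted IGF-binding protein, had -0.49 in males (limma adjusted p = 0.268). Of 25 enzymes that modify FoxO proteins 0 passed in either sex with limma (1 in females and 2 in males had an unadjusted p under 0.05). The deacetylase gene Sirt1 had -0.16 in females (limma adjusted p = 0.153) and the acetyltransferase gene Crebbp had -0.092 in males (limma adjusted p = 0.518).

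Among 8 genes of 14-3-3 proteins and nuclear export, Ywhag, which encodes 14-3-3 gamma, rose in female KO. Its female WT libraries were at 183, 184, 184, 178 and 190 FPKM and its female KO libraries at 205, 207, 206, 209 and 202. The groups did not overlap, as for 3.17% of all genes in this direction. The log2 difference was 0.16 (standard error 0.034, limma adjusted p = 0.0167), and in males it was 0.045 (limma adjusted p = 0.762). The call ended without the 4 Ttr libraries (adjusted p = 0.152) and without the 3 Prl libraries (adjusted p = 0.261), where the log2 difference was 0.15 and 0.14. The standard errors there were 0.045 and 0.049, and all 3 Prl libraries are female KO.

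Genes known as FoxO targets in various tissues were split by role. Of 24 measured targets in metabolism and autophagy, 1 rose and 1 fell in females (median 0.086), so that 2 of 24 passed beside 3.32% of all genes, and 11 of 24 had an unadjusted p under 0.05 beside 19.5%. In this list 0 passed in males with limma (4 had an unadjusted p under 0.05, median 0.047). Pomc, the gene of the hormone precursor proopiomelanocortin, is on this list and on that of pituitary markers. Atg12, whose product is conjugated to ATG5 during autophagosome formation, rose from 26.7 ± 1.12 FPKM in female WT to 30.5 ± 1.37 in female KO (SD, n = 5 each, log2 0.18, limma adjusted p = 0.0241). Female KO and WT did not overlap for Atg12, as for 3.17% of all genes in this direction. Fbxo32, which encodes the ubiquitin ligase receptor atrogin-1, a classical FoxO target in muscle, fell from 3.99 ± 0.578 to 2.99 ± 0.26 FPKM (SD, n = 5 each, log2 -0.32, limma adjusted p = 0.0307). Its female KO libraries ran from 2.57 to 3.29 FPKM and its female WT libraries from 3.32 to 4.87, so the groups did not overlap, as for 2.82% of all genes in this direction. In males Fbxo32 had -0.18 (limma adjusted p = 0.513) and Atg12 0.035 (limma adjusted p = 0.884).

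Neither call held in every set of libraries. The Atg12 call ended without female WT replicate 3, 4 or 5 or female KO replicate 5, and that of Fbxo32 without female WT replicate 3 or 4 or female KO replicate 1, 2, 3 or 5, with adjusted p-values up to 0.0702 and 0.0845 and directions kept. Both also ended without the Ttr libraries (adjusted p = 0.163 and 0.107, log2 0.16 and -0.30), without the Prl libraries (adjusted p = 0.105 and 0.159, with larger log2 differences of 0.25 and -0.39) and when female libraries alone were fitted (adjusted p = 0.0538 and 0.0754), and that of Fbxo32 after removal of the GC trend (adjusted p = 0.0515). Without the Prl libraries, all female KO, the standard errors were 0.055 and 0.11, against 0.042 and 0.077 with all 20 libraries.

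Other targets did not pass. Of 20 measured targets in cell cycle arrest and apoptosis, 0 passed in either sex with limma (3 in each had an unadjusted p under 0.05). Ccnd1, the cyclin D1 gene, which FoxO factors repress, had -0.39 in males, with 10.9 ± 0.599 FPKM for WT and 8.09 ± 0.864 for KO (SD, n = 5 per group, limma adjusted p = 0.0845). Its male groups did not overlap, as for 1.4% of genes in this direction. In females Ccnd1 had -0.22, with overlapping groups (limma adjusted p = 0.129). Tnfsf10, the gene of the death ligand TRAIL, had -0.2 in females (limma adjusted p = 0.158). Of 16 measured targets in stress defence 0 passed with limma (3 in females and 1 in males had an unadjusted p under 0.05). The zinc finger gene Klf2 had 0.43 in females (limma adjusted p = 0.0653) and the peroxiredoxin gene Prdx5 had 0.14 (limma adjusted p = 0.0982).

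Counted once each, the 121 tested regulators and targets held 3 calls in females, or 2.48%, which is near the 3.32% of all genes, and 0 in males with limma (15 had an unadjusted p under 0.05). Between the sexes in KO 7 of the 121 passed, or 5.79%, with 2 higher and 5 lower in males (2.25% and 3.13% of all genes). Among these Ywhag, Prdx5 and Ccnd1 were lower in males, with log2 differences of -0.14, -0.22 and -0.29 (limma adjusted p = 0.0291, 0.0186 and 0.036). The FoxO recognition letters GTAAACA (both strands) were found in 6 of 62 RefSeq promoters of target genes (GRCm38.p6, a window spanning the start site) and in 3.65% of all 32851 promoters of the same length. Of the 5 tested genes with these letters 0 passed in either sex with limma (0 in either sex had an unadjusted p under 0.05), and their differences ran from -0.099 to 0.14. RefSeq promoters were matched for Foxo1 and Foxo3, and these letters are not in those windows.

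Outside the FoxO class, 13 of 40 other forkhead genes were measured and 0 passed in females or males with limma (4 and 2 had an unadjusted p under 0.05). The smallest p-values belonged to Foxc1, a forkhead gene of meninges and vessel mural cells, with 0.29 in females (limma adjusted p = 0.0764), and to Foxn2, with -0.12 in females and -0.13 in males (limma adjusted p = 0.117 and 0.377). Between the sexes in KO, Foxc1 was lower in males, with a log2 difference of -0.31 (limma adjusted p = 0.0453). Its level was low, at 1.31 ± 0.335 FPKM in female KO and 0.842 ± 0.103 in male KO (SD), and these groups overlapped. It was the 1 of the 13 forkhead genes that passed there, where 5.38% of all genes passed. The 6 tested meningeal fibroblast markers had a median of 0.32 in the female comparison and 0.11 in the male comparison, where Foxc1 had 0.015. Between the sexes in KO their median was -0.35 with 2 lower past the threshold, where 3.13% of all genes passed in this direction. In WT their median was -0.21 with 6 of 6 below 0, and Foxc1 had -0.041. The part of these markers in the Foxc1 values was not tested.

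Library-to-library deviations of Foxo6 had low correlations with those of the other FoxO genes. After the group means were subtracted, Foxo6 had a Pearson r over the 20 libraries of -0.00053 with Foxo1, 0.032 with Foxo3 and -0.043 with Foxo4, and the highest value within the family was 0.49, between Foxo1 and Foxo3. Measured the same way over 11807 genes with a mean of at least 1 FPKM, the genes most like Foxo6 were Mtss1l (r = 0.87), Ing2 (0.80), Neurl1b (0.80), Dcaf5 (0.78) and Sgsm1 (0.78). With the group means left in, Neurl1b, a ubiquitin ligase gene with a GC content of 59.4%, had an r of 0.93 with Foxo6 and Dcaf5 had -0.097. The genes most like Foxo1 were Eif5a2, Mcl1, Cyp4v3, Ireb2 and Dr1 (r = 0.89 to 0.77), and those most like Foxo3 were Gm5113, the sodium leak channel gene Nalcn, the calcium pump gene Atp2a2, Trove2 and the synaptic scaffold gene Homer2 (0.85 to 0.82). For Foxo4 they included Bst2, Cox8b, Ifi27 and Lbp (0.79 to 0.73), of which Bst2 and Ifi27 are interferon-induced. All of these values share the same libraries and are descriptions without a test.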

How the data were processed

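Hippocampal RNA of 20 mouse libraries was sequenced (TRIzol extraction, SMARTER mRNA-seq kit, per the labels' protocols). The deposited values are FPKM per gene, per the file headers. FastQC, HISAT2, StringTie and build mm10 are named in the submitters' processing notes. Their versions, the annotation release and the strand handling: not given in the sources used here. Groups and replicate numbers come from the titles.

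Genes at 0.5 FPKM or more in at least 5 libraries (13174 of 13256) were taken as log2(FPKM + 1), which understates changes of low genes, and fitted with limma 3.58.1 (trend, R 4.3.3), with a mean per group over all 20 libraries. Adjusted p-values are Benjamini-Hochberg over all tested genes, with a threshold of 0.05. The fit was tested on simulated data for KO against WT in males. It recovered 48% of changes of 0.25 on the log2 scale and 80% of changes of 0.5, with 10 false calls among 171. Smaller true changes would often be missed. The members and lists were chosen with earlier results of these data known. Named genes are the 4 members, Fmr1, Ttr and Prl, list members past the threshold in KO against WT of either sex (otherwise the 2 with the smallest p) and, per FoxO gene, the 5 highest correlations. Of 64 regulators, 69 targets and 40 other forkhead genes, 63, 60 and 13 were measured, 1 under a newer symbol. GC content and coding sequences come from GENCODE M21, joined by gene identifier without its version. The alternatives were upper-quartile rescaling, no filter, a filter of 2 FPKM, a pseudocount of 0.1, robust empirical Bayes, the replicate block, removal of a per-library GC trend, fits without the Ttr or the Prl libraries, fits of the compared groups alone and each library left out in turn. Some genes picked by the rule for named genes are not reported here.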

Additional observations from a re-analysis of the deposited data

Results flagged for a closer look

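The Foxo6 KO effect differed between the sexes in the fit: the effect in males minus that in females was -0.66 (standard error 0.11). Foxo6 was 1 of 6 genes past the threshold in that comparison, 0.0455% of those tested. Foxo6 was chosen on its female values, so this is a description and no independent evidence of a difference. The value stayed below 0 in 9 of 9 alternatives, from -0.76 to -0.51, and was past the threshold in 4 of them. It was not past it after removal of the GC trend (-0.53), without the Ttr libraries (-0.51), without the Prl libraries (-0.76), with the replicate number as a block (-0.66) or with the filter at 2 FPKM (-0.66).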

How the results depend on the processing

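The difference of Foxo6 in females was 0.50 without the Ttr libraries and 0.50 with the GC trend removed, and its male-minus-female difference in KO was -0.32 after removal of the GC trend. Differences near 0 changed sign. For Foxo3 between the sexes in KO the value was 0.0025 with upper-quartile rescaling, 0.094 with the GC trend removed and 0.010 without the Prl libraries. In females Foxo3 (0.039) was -0.026 with the GC trend removed, and Foxo1 (0.0069) was -0.044 without the Ttr libraries, -0.0045 with upper-quartile rescaling and -0.026 to 0.036 with each library left out. With each library left out, values ran from -0.036 to 0.020 for Foxo3 and from -0.056 to 0.016 for Foxo1 between the sexes in KO, from -0.056 to 0.016 for Foxo4 and from -0.071 to 0.0093 for Foxo6 in KO against WT in males, and from -0.00024 to 0.041 for Foxo4 between the sexes in WT. None of the tested values named here changed its side of the threshold.

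The count of all genes past the threshold in males (6) was 3 with the filter at 2 FPKM and 12 without the Ttr libraries, and 6 to 11 with each library left out (11 without WT replicate 2, 10 without WT replicate 3). In females (438) it was 223 after removal of the GC trend, 76 without the Ttr libraries, 8 without the Prl libraries, 91 when the compared groups were fitted alone, and 176 to 455 with each library left out (211, 176 and 217 without WT replicate 3, 4 or 5, and 208, 180 and 258 without KO replicate 2, 3 or 5). The Prl libraries were all female KO and the Ttr libraries included female WT and female KO, so fits without them had fewer female libraries. Female calls among FoxO regulators and targets (3) were 5 with the replicate block, 0 without the Ttr or the Prl libraries, 1 when the compared groups were fitted alone, and 1 to 4 with each library left out (1 without WT replicate 3 or KO replicate 5). The causes were not tested. The replicate numbers did not pair the libraries: 0 of 30 same-number pairs had a correlation of deviations over 0.1, 1 of 20 libraries correlated best with its own number, and with the replicate block the Foxo6 difference was 0.63 in females and -0.031 in males. Depth is unknown, so no counting error could be given.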
